A study of Mus musculus with 20 samples.

Results

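Cholesterol is built from acetyl-CoA through mevalonate, isoprene units, squalene and lanosterol, and the stretch studied here is the set of 9 genes that the rule names by symbol: Hmgcs1, Mvk, Pmvk, Mvd, Idi1, Fdps, Fdft1, Sqle and Lss. Rows for 8 of the 9 were found among the 13319 gene symbols, and Idi1, the isomerase of isopentenyl diphosphate, was not analysed here. All 8 passed the filter on low counts. Each liver was from a different male mouse on western diet, with 16 days of daily dosing and 4 mice a group (20 in all). They had received control treatment, glucagon (a hormone the pancreas releases in fasting), T3 (triiodothyronine, the thyroid hormone that binds the nuclear receptor), both hormones at once (Gluc+T3 in the labels, combination below) and a hybrid in which the 2 hormones are 1 compound. The hybrid is labelled Cp, which was matched to it by elimination. The sources used here do not give the strain, age, doses or what the controls received.

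HMG-CoA synthase, the product of Hmgcs1, makes the HMG-CoA from which mevalonate is formed. The kinases Mvk and Pmvk and the decarboxylase Mvd then make isopentenyl diphosphate, Fdps joins isoprene units into farnesyl diphosphate, Fdft1 couples these into squalene, and Sqle and Lss oxidise and fold squalene into lanosterol. In liver these genes are known as targets of the transcription factor SREBP2, which is released from the endoplasmic reticulum when sterols run low, is held back there by Insig proteins, and is commonly described as raising the whole set together. Thyroid hormone and glucagon are both known to lower blood cholesterol in rodents.

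The 8 genes did not move as 1 block. After glucagon, Pmvk was 12.8-fold and Mvk 3.59-fold the control level and Lss was 1.90-fold, while Hmgcs1 was at 0.468 of it. T3 lowered Hmgcs1 and Lss and called no other gene of the set. In the combination and hybrid groups Pmvk was 6.62-fold and 5.46-fold the control level, Lss stood near control, and Hmgcs1 and Fdft1 were lower than in control. A gene is called, and said to have risen or fallen, where edgeR gave an adjusted p below 0.05 (quasi-likelihood test, Benjamini-Hochberg across the 12907 genes tested). Changes are log2 values ± SE, and levels are TMM-normalised CPM, counts scaled to a common library size.

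The sequences before the start sites of Hmgcs1, Mvk, Pmvk and Lss, the 4 genes called with glucagon, are shown because these genes moved in opposite directions. They come from RefSeq on GRCm38.p6, whose coordinates are those of mm10, read 5′ to 3′ on the plus strand, and stop short of any protein-coding exon. Capitals mark 3 searched motifs on either strand: the sterol regulatory core TCACNCCAC, the CCAAT box and the Sp1 box, GGGCGG. A match on the minus strand appears as the reverse complement. The stretches are chr13:119690101-119690350 (Hmgcs1), chr5:114444061-114444268 (Mvk), chr3:89454291-89454540 (Pmvk) and chr10:76531355-76531587 (Lss).
Hmgcs1: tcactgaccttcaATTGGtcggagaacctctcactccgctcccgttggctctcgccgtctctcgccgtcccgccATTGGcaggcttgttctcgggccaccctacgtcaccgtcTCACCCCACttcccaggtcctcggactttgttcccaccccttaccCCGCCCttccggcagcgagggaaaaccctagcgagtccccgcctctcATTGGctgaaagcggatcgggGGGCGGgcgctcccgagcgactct
Mvk: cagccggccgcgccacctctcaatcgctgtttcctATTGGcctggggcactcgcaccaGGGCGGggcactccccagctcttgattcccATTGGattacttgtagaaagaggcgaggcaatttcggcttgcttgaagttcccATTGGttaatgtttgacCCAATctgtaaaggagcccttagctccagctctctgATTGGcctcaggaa
Pmvk: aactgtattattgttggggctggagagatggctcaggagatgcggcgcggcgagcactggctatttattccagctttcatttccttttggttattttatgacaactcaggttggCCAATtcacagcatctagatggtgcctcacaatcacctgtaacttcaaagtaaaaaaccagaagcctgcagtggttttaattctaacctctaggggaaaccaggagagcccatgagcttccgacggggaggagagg
Lss: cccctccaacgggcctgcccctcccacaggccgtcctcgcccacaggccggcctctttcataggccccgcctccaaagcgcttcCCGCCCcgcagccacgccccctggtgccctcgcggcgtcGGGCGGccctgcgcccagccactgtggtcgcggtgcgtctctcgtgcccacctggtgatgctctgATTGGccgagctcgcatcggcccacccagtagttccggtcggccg

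Windows of 300 bases (250 before and 50 after a start) were held for 6 of the 9 genes, Hmgcs1, Mvk, Pmvk (2 windows), Mvd, Idi1 and Lss. The sterol regulatory core was matched in the Hmgcs1 window, 137 bases before the start, and in none of the other 6 windows of the set; 1.24% of all 32851 windows hold it. CCAAT was matched 5 times in the Mvk window, 4 times in that of Hmgcs1, 2 times each in those of Mvd and Idi1, and 1 time each in those of Lss and of the first Pmvk start, against 37.4% of all windows with at least 1 match. The Sp1 box was matched in the windows of Hmgcs1, Mvk, Mvd, Lss and Idi1 and in neither Pmvk window (35.7% of all windows). The cAMP response element TGACGTCA, in 1.79% of all windows, and a direct repeat of the thyroid receptor half-site AGGTCA spaced by 4 bases, in 0.0152%, were matched in none of the 7. No match of 1 motif overlapped a match of another. These are matches of letters, not measured binding.

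On GRCm38 in GENCODE M21 the genes are protein-coding and lie on 7 chromosomes: Hmgcs1 at chr13:119690379-119708260, Mvk at chr5:114444269-114460591, Pmvk at chr3:89454541-89469013, Mvd at chr8:122433601-122443422 (minus strand), Fdps at chr3:89093588-89101959 (minus strand), Fdft1 at chr14:63145150-63179578 (minus strand), Sqle at chr15:59315077-59331192 and Lss at chr10:76531588-76557138. Some counts are less certain than others. The strand setting of the counting is unknown here, so reads of opposite strands may not have been kept apart. Fdps has 4 processed pseudogenes in the annotation, and Fdft1 has 1, with at least 95% identity over at least 200 bases, so reads of both could be split between copies. Fdft1 also shares 774 exon bases with Ctsb on the opposite strand, and Hmgcs1 and Lss share 557 and 381 exon bases with antisense transcripts. Fdps shares 1124 exon bases with the protein-coding Gm43738 on the same strand, which no strand setting would separate. Of these copies and overlapping genes, Ctsb alone has a row in the counts. Whether the annotation used for counting held the others is unknown.

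Depth ran from 6091917 to 23195658 counts a library and was lowest in the T3 group, and the lowest count of any of the 8 genes in any library was 38. All T3 libraries ran in sequencing lane 5, whereas replicates 1 to 4 of the other groups ran in lanes 1 to 4, so in every comparison with the T3 group lane and treatment cannot be told apart. Hepatocyte markers (7 of 7 tested, Alb among them) summed to between 80570 and 262300 CPM; the ranges were 128500 to 262300 (control), 165500 to 229300 (glucagon), 85540 to 127500 (T3), 96420 to 147400 (combination) and 80570 to 114900 (hybrid). Kupffer cell and macrophage markers (7 of 7 tested) summed to 170.5 to 213.3 CPM in glucagon, 240.6 to 464.9 in control, 438.9 to 547.8 in combination, 450.6 to 641.9 in hybrid and 601.1 to 733.6 in T3. No hepatocyte or Kupffer marker was at 0 in any library. Skeletal muscle markers (6 of 6 tested) summed to 681 CPM in control 2, 2489 in glucagon 3, 229.3 in combination 4 and 455.4 in hybrid 4, against 1.39 to 50.4 in the other 16 libraries, and interferon response markers to 1597 CPM in control 2 against 80.24 to 832.8 elsewhere. The part of these markers in the results was not tested. Without the 4 libraries with muscle transcripts, 1 call among the 8 genes against control was lost, that of Mvd with the combination (adjusted p = 0.188). In whole liver RNA, fewer cells of a type and less RNA per cell cannot be told apart.

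Hmgcs1, the first enzyme of the set, was lower in each treated group. Control livers held 74.0, 38.8, 39.8 and 44.9 CPM. The glucagon livers held 28.9, 18.8, 20.6 and 24.3 CPM and the T3 livers 28.9, 23.2, 22.9 and 16.5 CPM. Every control stood above all 8 of these, with control 1 far above the rest. Combination livers held 24.2, 29.6, 23.6 and 27.1 CPM and hybrid livers 27.1, 25.6, 21.3 and 17.9 CPM, again with no overlap with control. Hmgcs1 fell by 1.09 ± 0.21 on the log2 scale with glucagon (adjusted p = 0.000995), 1.11 ± 0.21 with T3 (0.00169), 0.92 ± 0.21 with the combination (0.00446) and 1.10 ± 0.21 with the hybrid (0.000824), comparisons that share the control livers. Between the treated groups the differences that were tested lay between -0.18 and 0.19 and none was called. The sum of the separate glucagon and T3 changes was lower than the joint change by 1.28 ± 0.30 (adjusted p = 0.0165 for the departure from additivity), a call that ended without glucagon 2 (1.19, adjusted p = 0.0537).

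Mvk, the kinase before Pmvk, rose with glucagon and was lower again when T3 was present. Control livers held 8.72, 12.6, 18.03 and 21.04 CPM and glucagon livers 39.8, 75.7, 56.3 and 44.3 CPM. T3 livers held 17.9, 13.5, 11.6 and 11.4 CPM. The glucagon livers stood clear of both. Combination livers held 32.5, 25.4, 21.8 and 22.2 CPM, just above the controls, and hybrid livers 13.9, 13.5, 16.9 and 33.9 CPM, where hybrid 4 stood apart. Mvk rose by 1.85 ± 0.30 with glucagon (adjusted p = 0.000215). Its changes of 0.76 ± 0.30 with the combination (adjusted p = 0.078), 0.37 ± 0.30 with the hybrid (0.399) and -0.14 ± 0.31 with T3 (0.779) were not called, and the combination value was called without control 4 (0.96, 0.0399). Relative to glucagon, Mvk was lower in the combination (-1.08 ± 0.29, adjusted p = 0.0118) and in the hybrid (-1.48 ± 0.30, 0.0012).

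The start of Mvk lies 209 bases from that of Mmab, which runs the other way and encodes an enzyme of vitamin B12 metabolism, so the Mvk stretch printed above is the whole DNA between the pair. Mmab stood at 20.7 ± 5.60 CPM (SD, n = 4) among controls, 19.1 ± 1.84 with glucagon, 20.2 ± 4.86 with T3, 15.9 ± 1.93 with the combination and 12.8 ± 2.64 with the hybrid. In the comparison where Mvk rose, Mmab changed by -0.12 ± 0.20 (adjusted p = 0.714). Mmab fell in the hybrid against control (-0.69 ± 0.20, adjusted p = 0.0163), where Mvk was not called. Relative to glucagon, both genes were called lower in the hybrid, Mmab by 0.58 ± 0.20 (edgeR adjusted p = 0.041) and Mvk by 1.48 ± 0.30 (0.0012). The pair was looked up after the Mvk values were seen, and the difference between the 2 genes was not tested.

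**Figure D1:**
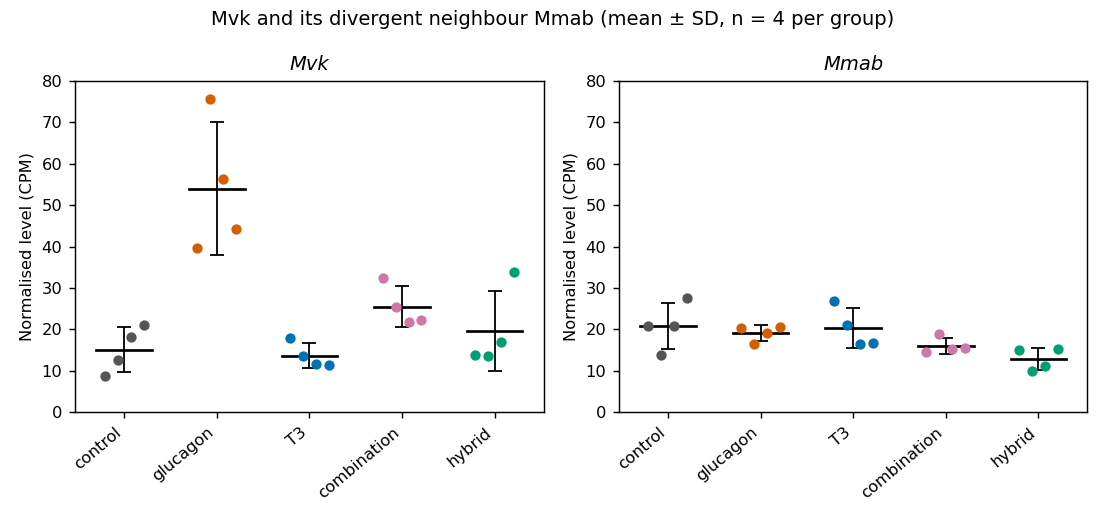
Level in CPM (y axis) of Mvk (left) and of Mmab (right), whose start sites lie 209 bases apart in opposite directions, in each liver (point) by treatment group (x axis), with mean and SD (n = 4). Glucagon livers reach 39.8 to 75.7 CPM in Mvk and 16.5 to 20.5 CPM in Mmab.

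Pmvk, the second kinase of the route, had the largest change of the 8 genes. Control livers held 15.2, 14.8, 17.8 and 30.2 CPM and glucagon livers 308, 288, 170 and 228 CPM. T3 livers held 22.8, 10.4, 14.9 and 8.63 CPM. Control and T3 livers covered overlapping low ranges, and each glucagon liver lay far above the highest of them. Combination livers held 179, 153, 102 and 80.9 CPM and hybrid livers 86.1, 79.8, 99.4 and 160 CPM, all above every control and T3 liver. The rise over control was 3.67 ± 0.32 with glucagon (adjusted p = 2.5e-07), 2.73 ± 0.32 with the combination (1.19e-05) and 2.45 ± 0.32 with the hybrid (2.68e-05), while the T3 value of -0.45 ± 0.33 was not called (0.361).

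Against T3 livers in place of control livers, the combination was 3.18 ± 0.33 above T3 in Pmvk (adjusted p = 4.31e-05) and the hybrid 2.90 ± 0.33 above T3 (4.6e-05), both across lanes. Pmvk fell in the combination relative to glucagon (-0.95 ± 0.31, adjusted p = 0.036), with overlapping groups, and that call ended without combination 3 (0.101), combination 4 (0.114), glucagon 1 (0.0975) or glucagon 2 (0.0847). The hybrid was lower than glucagon (-1.22 ± 0.31, adjusted p = 0.0076) with no overlap. The departure of the combination from additivity was -0.49 ± 0.46 and was not called (0.625).

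Mvd, the decarboxylase that yields isopentenyl diphosphate, held 7.49, 10.1, 7.74 and 10.1 CPM in control and 6.04, 5.11, 5.59 and 4.55 CPM in the combination, with ranges of 4.03 to 8.36 in glucagon, 6.07 to 13.1 in T3 and 4.73 to 7.65 in hybrid. It fell by 0.73 ± 0.26 in the combination (edgeR adjusted p = 0.0489), and that call ended with the lane as a replicate block (0.0595), without control 2 and glucagon 3 (0.0894), and without any 1 of 6 libraries (adjusted p 0.0695 to 0.122: control 2, control 4 and each combination library). The change with glucagon (-0.72 ± 0.26) missed the threshold at 0.0507. DESeq2 called it (adjusted p = 0.0419), and so did edgeR without control 1 (0.0479), control 3 (0.0413) or glucagon 1 (-1.02, 0.00779). Fdps, farnesyl diphosphate synthase, held 5.67, 4.25, 8.82 and 17.9 CPM among controls, 19.2, 7.83, 7.26 and 16.3 with glucagon, 6.07 to 15.7 with T3, 11.1 to 12.4 with the combination and 9.68 to 16.0 with the hybrid. The groups overlapped throughout and no comparison called Fdps. Its values against control were 0.26 to 0.58, and without control 4 it was called higher with glucagon (1.04, adjusted p = 0.0423) and with the hybrid (1.13, 0.0252).

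Fdft1, squalene synthase, was lowest where both hormones acted. Control livers held 11.1, 9.17, 16.1 and 12.4 CPM, and glucagon and T3 livers held 6.39 to 10.8 CPM and 7.51 to 12.2 CPM. Combination livers held 6.04, 6.86, 6.08 and 6.403 CPM and hybrid livers 4.62, 4.11, 5.86 and 4.20 CPM. Neither of these overlapped with control, and the hybrid lay below every other liver of the study. Fdft1 fell by 0.94 ± 0.20 with the combination (adjusted p = 0.00269) and by 1.37 ± 0.20 with the hybrid (6.91e-05), and the changes with glucagon (-0.49 ± 0.20, 0.0886) and T3 (-0.32 ± 0.20, 0.283) were not called. The hybrid was lower than glucagon (-0.89 ± 0.20, adjusted p = 0.00329) and lower than T3 (-1.05 ± 0.21, 0.00437). Ctsb, the overlapping gene, changed by 0.00 ± 0.17 in the hybrid and -0.17 ± 0.17 in the combination against control, neither called (0.995 and 0.521).

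Sqle, the oxygenase that makes squalene epoxide and is known as a control point of the route, varied widely within groups. Control livers held 40.9, 50.4, 16.3 and 15.5 CPM, glucagon livers 17.6, 24.8, 5.68 and 9.86 CPM, and T3 livers 21.6, 12.8, 16.9 and 10.2 CPM. Combination livers held 25.7, 21.7, 17.5 and 11.6 CPM and hybrid livers 22.02, 24.1, 12.5 and 13.7 CPM. In each of the 4 groups spread over lanes 1 to 4, the libraries of lanes 1 and 2 both stood above those of lanes 3 and 4. Mean levels were 26.02, 29.6, 12.7 and 12.4 CPM in lanes 1 to 4. The edgeR lane term was not called for Sqle over 12896 genes (adjusted p = 0.157), and 3 genes in all were called between lanes. The other 7 genes of the set had adjusted lane p values in edgeR of 0.661 to 0.907.

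Sqle changed by -1.09 ± 0.42 with glucagon (edgeR adjusted p = 0.0713), -1.001 ± 0.42 with T3 (0.107), -0.69 ± 0.42 with the combination (0.257) and -0.77 ± 0.41 with the hybrid (0.192). The glucagon value was called with DESeq2 (adjusted p = 0.0449), and in edgeR without control 3 (0.0302), control 4 (0.0387) or glucagon 2 (0.0304). Without control 3 the T3 value was called too (edgeR adjusted p = 0.0489). With the lane as a replicate block in the 16 libraries outside the T3 group, the glucagon value was -1.08 and was called (adjusted p = 0.0062), and the other 2 were not. Lane and replicate number are the same in these groups and cannot be told apart.

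**Figure D2:**
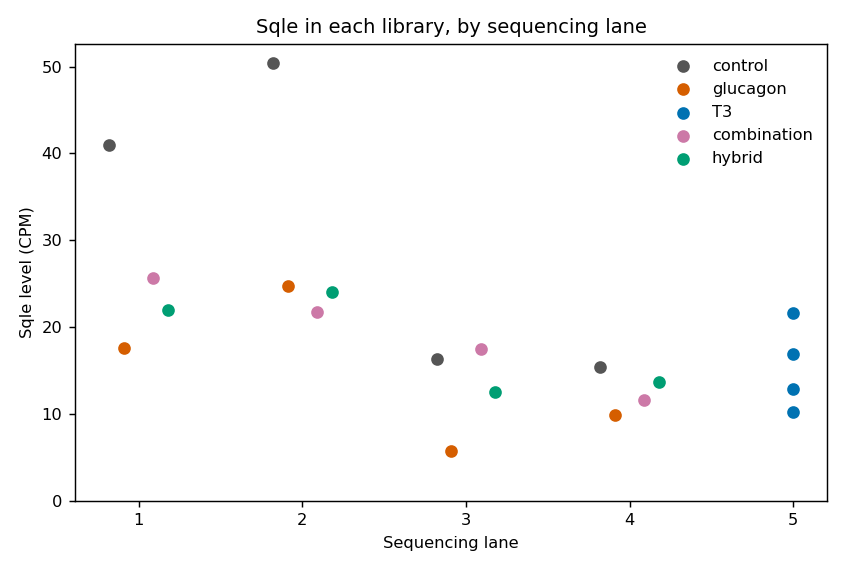
Sqle level in CPM (y axis) in each of 20 libraries (points, coloured by treatment) by sequencing lane (x axis). Within control, glucagon, combination and hybrid, the libraries of lanes 1 and 2 lie above those of lanes 3 and 4, and lane 5 holds the 4 T3 libraries at 10.2 to 21.6 CPM.

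Lss, which closes the lanosterol rings at the end of the stretch, moved in opposite directions under the separate hormones. Control livers held 25.3, 19.1, 24.01 and 30.5 CPM. Glucagon livers held 60.2, 43.4, 35.8 and 48.6 CPM and T3 livers 15.9, 16.5, 15.4 and 11.4 CPM. Neither group overlapped with control, the first lying above it and the second below it. Combination livers held 27.4, 28.7, 19.4 and 22.6 CPM and hybrid livers 23.3, 30.6, 29.6 and 30.2 CPM, within or close to the control range. Lss rose by 0.93 ± 0.18 with glucagon (adjusted p = 0.00112) and fell by 0.73 ± 0.19 with T3 (0.0115; 0.082 in a fit of these groups alone). The combination (-0.01 ± 0.18, 95% interval -0.39 to 0.37) and the hybrid (0.20 ± 0.18, interval -0.18 to 0.58) were not called against control.

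In order of level, Lss ran from glucagon (47.0 ± 10.3 CPM) to hybrid (28.4 ± 3.45), control (24.7 ± 4.68), combination (24.5 ± 4.33) and T3 (14.8 ± 2.35). Relative to glucagon, Lss was lower in the hybrid (-0.73 ± 0.18, adjusted p = 0.00578) and in the combination (-0.94 ± 0.18, 0.000854). The 3 middle groups overlapped and no difference tested between them was called. The hybrid was above T3 (0.94 ± 0.19, adjusted p = 0.0049), while the combination missed the threshold against T3 (0.72 ± 0.19, 0.0599; 0.018 with DESeq2) although the 2 groups did not overlap.

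**Figure D3:**
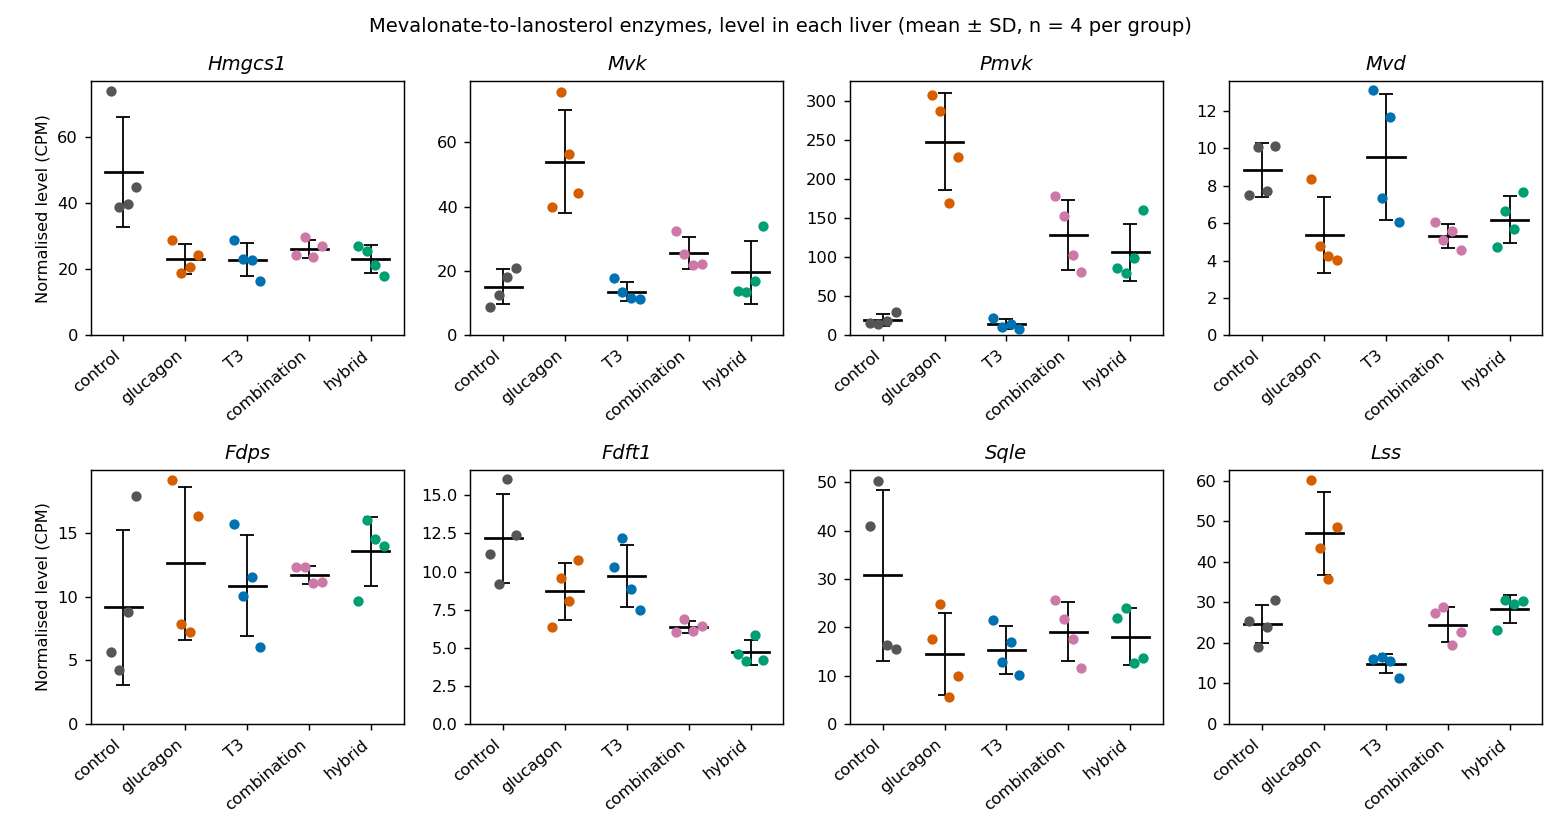
Level in CPM (y axis, from 0, with its own scale in each panel) of the 8 genes in each of 20 livers (points) by treatment group (x axis), with mean and SD (n = 4). Pmvk sits at 170 to 308 CPM after glucagon, 79.8 to 179 in the combination and hybrid groups and 8.63 to 30.2 in control and T3, while Hmgcs1 lies below every control in all treated livers.

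Counted against all genes, the calls in the set were as follows. Glucagon called 4 of the 8 (Mvk, Pmvk and Lss higher, Hmgcs1 lower), and 21.2% of the 12907 genes tested were called (9.23% higher, 11.9% lower); 4 of the 8 did not overlap with control, against 16.6% of all genes. T3 called 2 (Hmgcs1 and Lss lower; background 18%, 7.31% higher and 10.6% lower) and 2 did not overlap (15%). The combination called 4 (Pmvk higher, Hmgcs1, Mvd and Fdft1 lower; background 20.1%, 9.23% higher and 10.9% lower) and 5 did not overlap (16.6%). The hybrid called 3 (Pmvk higher, Hmgcs1 and Fdft1 lower; background 24.4%, 11.2% higher and 13.2% lower) and 3 did not overlap (17.7%). The median change of the 8 was -0.01 with glucagon, -0.39 with T3, -0.35 with the combination and -0.16 with the hybrid, against medians of -0.09, -0.05, -0.07 and -0.05 over all genes tested.

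**Figure D4:**
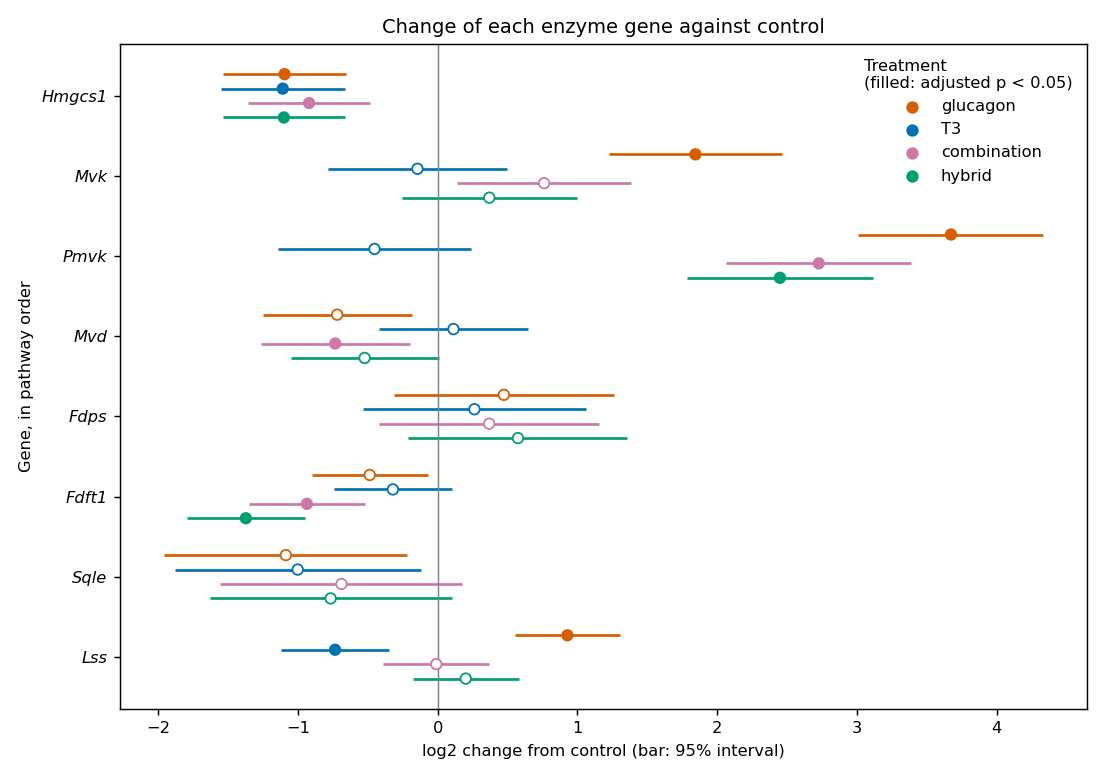
Log2 change from control (x axis) with 95% interval for the 8 genes in pathway order (y axis) under each treatment (colours); filled points passed the adjusted p threshold. Hmgcs1 lies near -1 under all 4 treatments, Pmvk at 3.67, 2.73 and 2.45 under the 3 that hold glucagon, and Lss at 0.93 with glucagon and -0.73 with T3.

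T3 added to glucagon, combination against glucagon, was compared in libraries balanced over lanes to ask what T3 does when glucagon is given. Mvk, Pmvk and Lss, the genes that glucagon raised, were lower and no gene was higher. These are 3 of 8 called, against 22.5% of all genes (12.4% higher, 10.2% lower). Of the 8, 2 did not overlap, against 33.2% of all genes. The same glucagon livers enter this comparison and that of glucagon with control, with opposite sign, so the 2 results are not independent. Hmgcs1 differed by 0.18 ± 0.21 and was not called. The median over the 8 was -0.28, and over all genes 0.00. Glucagon added to T3, combination against T3, called Pmvk alone (background 1.39%), although 5 of the 8 groups of livers did not overlap (12.2% of all genes); besides Pmvk these were Mvk (0.91 ± 0.30, edgeR adjusted p = 0.181), Mvd (-0.85 ± 0.26, 0.135), Fdft1 (-0.62 ± 0.20, 0.174) and Lss. This last comparison lies across lanes.

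The hybrid was set against the hormones given together to ask whether joining them changes the response. None of the 8 genes was called by edgeR, and DESeq2 called none; over all genes edgeR called 4, 0.031%. At an unadjusted p under 0.05 there was 1 of the 8, against 891 of all genes (6.9%). The 1 gene was Fdft1, lower in the hybrid (-0.44 ± 0.21, edgeR adjusted p = 0.717), and its groups did not overlap (7.31% of all genes). The 95% intervals of the hybrid level as a multiple of the combination level ran from 0.65 to 1.2 for Hmgcs1, 0.524 to 1.3 for Pmvk, 0.496 to 1.17 for Mvk, 0.89 to 1.5 for Lss, 0.518 to 1.73 for Sqle, 0.796 to 1.68 for Mvd and 0.671 to 1.98 for Fdps. The Fdft1 interval, 0.549 to 0.995, was the only 1 of the 8 that left out equal levels, and it is not adjusted for the number of genes. Differences within these intervals are not excluded with 4 livers a group. The sources used here do not state doses, so whether they were matched is unknown.

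Set against the single hormones, the hybrid called 4 of 8 genes against glucagon, Mvk, Pmvk, Fdft1 and Lss, all lower (background 25.2%, 13.6% higher and 11.7% lower). Of the 8, 4 did not overlap, against 33% of all genes. This comparison also shares the glucagon livers with that of glucagon against control. The hybrid called 3 of 8 against T3, Pmvk and Lss higher and Fdft1 lower (background 6.36%, 3.69% higher and 2.67% lower), and 3 did not overlap, against 18.4%. Of the departures from additivity, that of Hmgcs1 was called (1 of 8, higher; background 3.73%, 1.6% higher and 2.14% lower), and those of Sqle (1.40 ± 0.60, edgeR adjusted p = 0.231) and Mvk (-0.94 ± 0.43, 0.264) were not.

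Other genes of sterol metabolism were read from further lists. Acat2, which makes acetoacetyl-CoA before the step of Hmgcs1, was not called against control by any treatment.

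Of the 10 genes from lanosterol to cholesterol, 1 rose and 3 fell with glucagon, and 1 rose and 3 fell with T3. With the combination 1 rose and 1 fell, and with the hybrid 2 rose and 1 fell. The shares of all genes tested called in these comparisons were 21.2%, 18%, 20.1% and 24.4%. Sc4mol (now Msmo1), a sterol methyl oxidase, fell under each: from 61.0 ± 35.1 CPM in control livers to 25.8 ± 6.18 with glucagon (-1.24 ± 0.29), 31.9 ± 4.58 with T3 (-0.94 ± 0.29), 24.02 ± 3.99 with the combination (-1.34 ± 0.29) and 23.7 ± 8.02 with the hybrid (-1.36 ± 0.29). Hsd17b7, a sterol ketone reductase, rose with glucagon (0.92 ± 0.22), the combination (0.70 ± 0.22) and the hybrid (0.97 ± 0.22), and its T3 level of 76.0 ± 14.6 CPM stood beside 73.4 ± 18.2 in control. Sc5d fell with glucagon (-0.72 ± 0.23, edgeR adjusted p = 0.0295) and T3 (-0.71 ± 0.23, 0.0365), and Cyp51 with T3 (-0.90 ± 0.29, 0.041). In each of these the groups overlapped, and control livers held 337 to 863 CPM of Sc5d. Ebp rose with the hybrid (0.53 ± 0.15, edgeR adjusted p = 0.0158).

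**Figure D5:**
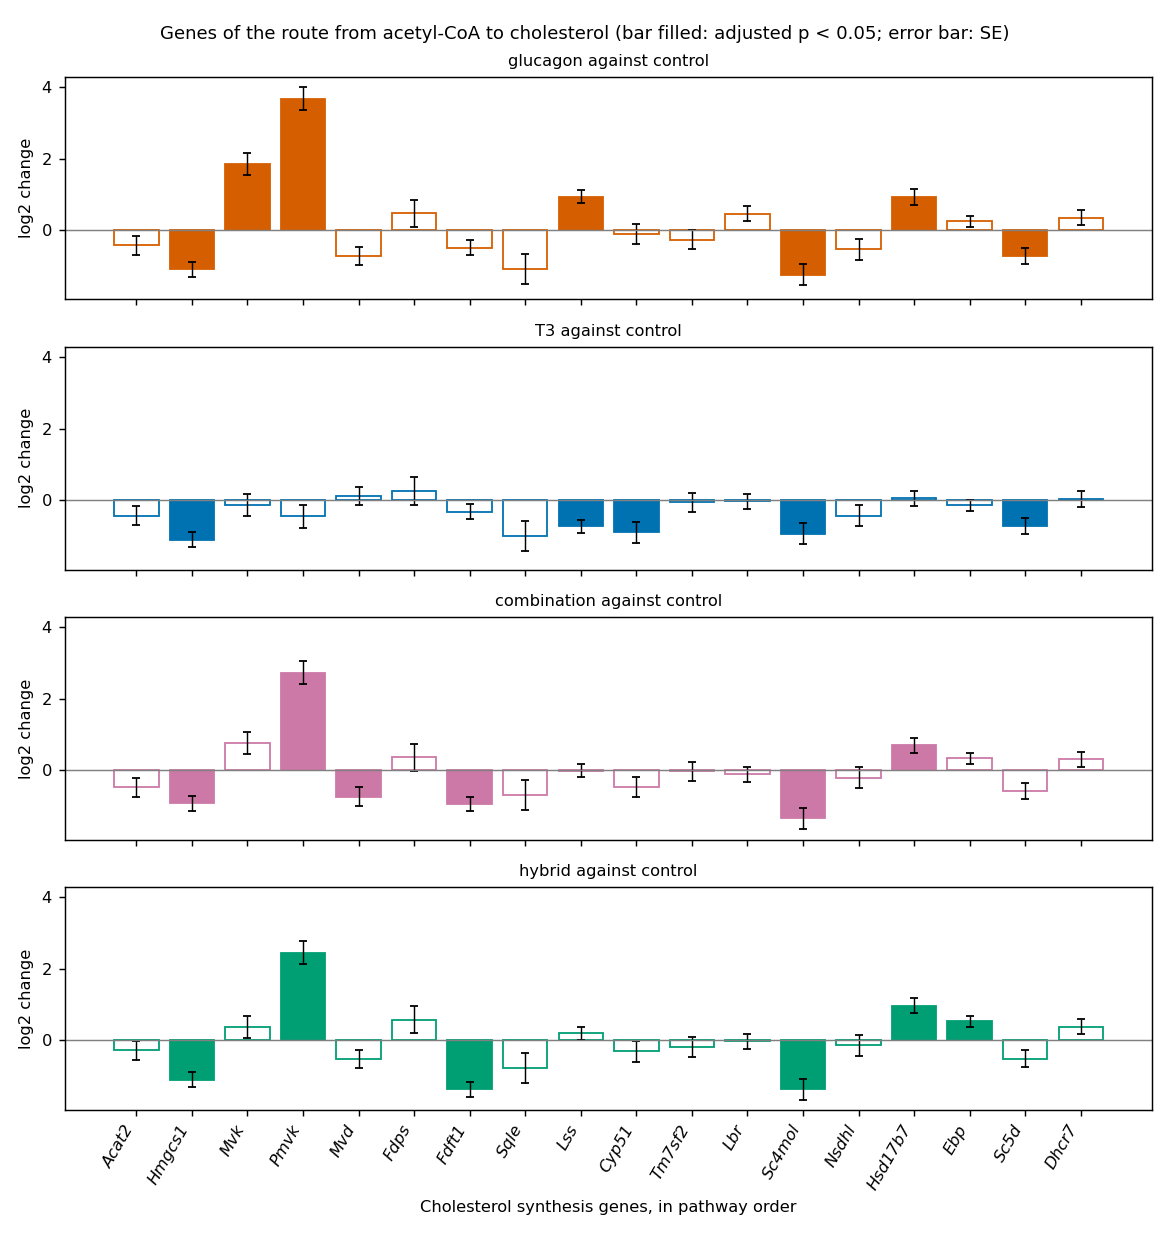
Log2 change from control (y axis, bar, with SE) of 18 genes of the route in pathway order (x axis) in 4 panels, 1 for each treatment; filled bars passed the adjusted p threshold. In the glucagon panel the filled bars of Mvk, Pmvk, Lss and Hsd17b7 point up and those of Hmgcs1, Sc4mol and Sc5d point down, whereas every filled bar of the T3 panel points down.

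In the list of 12 genes of sterol sensing, 2 rose and 0 fell with glucagon (21.2% of all genes tested were called). With each of T3, the combination and the hybrid 0 rose and 3 fell (18%, 20.1% and 24.4% of all genes called). Insig1, which holds the SREBP complex in the endoplasmic reticulum and is itself an SREBP target, stood at 148 ± 42.9 CPM among controls, 104 ± 22 with glucagon, 32.7 ± 10.8 with T3, 41.3 ± 9.99 with the combination and 35.3 ± 6.27 with the hybrid. It fell by 2.18 ± 0.25 with T3 (adjusted p = 1.32e-05), 1.84 ± 0.24 with the combination (3.43e-05) and 2.07 ± 0.24 with the hybrid (8.68e-06), and its glucagon value of -0.51 ± 0.24 was not called (0.143). Srebf1 and Stard4 were the other 2 that fell in these 3 comparisons, with Srebf1 at -1.33 ± 0.35 with T3 and -1.95 ± 0.35 with the hybrid. Scap, the SREBP escort, rose with glucagon (0.72 ± 0.20). Srebf2, which encodes SREBP2, changed by -0.23 to 0.34 against control and was not called under any treatment; its mRNA level does not give the amount of processed protein.

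Of 9 genes that use farnesyl or geranylgeranyl units for other products, none was called with glucagon, 2 fell with T3 (Fnta and Nus1), 1 with the combination (Fnta) and 1 with the hybrid (Coq2). Of the 4 ketogenesis genes none was called with glucagon, T3 or the combination. With the hybrid 3 fell, among them Bdh1 (-0.88 ± 0.21) and Acat1 (-0.60 ± 0.21). For both lists the all-gene shares called were 21.2% (glucagon), 18% (T3), 20.1% (combination) and 24.4% (hybrid).

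Over the 20 libraries, correlations of log2 CPM between pairs of the 8 genes ran from -0.586 (Pmvk with Mvd) to 0.82 (Mvk with Pmvk), with a median of -0.03 over 28 pairs, 14 of them below 0. With group means removed the median was 0.254, and the highest values were 0.808 for Fdps with Lss and 0.699 for Pmvk with Mvd, the pair that was lowest before. Hmgcs1 and Mvk stood at -0.518 on that measure. Libraries differ in depth, and same-numbered libraries outside the T3 group share a lane, so these values are only a description over 20 libraries. By the mean of the 8 standardised genes, the most similar of 5282 other genes included Rdh11 (r = 0.822), Camk1d (0.747), Ehd3 (0.746), Ubap1 (0.74), Aqp8 (0.723) and Prosc (0.712), and with group means removed Rdh11 (0.777), Tinagl1 (0.763), Snx8 (0.738), Colec11 (0.7) and Nsdhl (0.694). Insig1 had rank 14 by the first measure and Srebf2 rank 4193.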

How the data were processed

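Liver RNA of 20 mice was sequenced, 1 library a mouse. The authors deposited whole-number counts of reads for each gene symbol. HTSeq and mm10 are named by the submitters' processing notes, and Qiagen and Lexogen reagents by the labels' protocols. The aligner, annotation, strand setting and HTSeq version were not given in the sources used here. That replicates are separate mice is stated in the series design.

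In R 4.3.3, genes were kept by filterByExpr of edgeR 4.0.16 (minimum count 10, minimum total 15; 12907 of 13319 kept), normalised by TMM and fitted over all 20 libraries with 5 group means by the quasi-likelihood method (15 residual and 5 prior degrees of freedom). Benjamini-Hochberg adjustment covered all tested genes within each of 10 comparisons, and intervals are 95%. Correlations used log2 CPM with a prior count of 2. The fit was tested on simulated data. Copies of the genes were sought with blastn 2.17.0 among GENCODE M21 transcripts. Alternatives were RLE factors, no filter, DESeq2 1.42.0, the compared groups alone, replicate blocks, and libraries left out.

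Replicate numbers mark lanes 1 to 4 in the 16 libraries outside the T3 group, per the labels, and no lane within it. Over the 24 pairs of same-numbered libraries that share a lane, deviations from group means correlated at -0.318 to 0.462 across genes, over 0.1 in 10. The genes, lists and comparisons were chosen with earlier results of these data known. All 9 genes were named by rule, with Insig1 and Srebf2 and up to 4 called genes of smallest p of each pathway list in each comparison with control. Some genes that this rule names are not reported here.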

Additional observations from a re-analysis of the deposited data

Results flagged for a closer look

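Of 40 sets of 4 livers (8 genes in 5 groups), 2 held a liver far from the others, about what chance gives at 1 in 20. In Mvk, hybrid 4 stood at 33.9 CPM against 13.5 to 16.9 CPM in the other hybrid livers, a gap that is 0.833 of the whole range, past Dixon's limit for 4 livers. Without hybrid 4 the Mvk change against control was -0.01 in place of 0.37, neither called. In the same liver Pmvk was at 160 CPM against 79.8 to 99.4 CPM, and skeletal muscle markers summed to 455.4 CPM; their part was not tested. In Lss, hybrid 1 stood at 23.3 CPM against 29.6 to 30.6 CPM in the other hybrid livers, a gap of 0.868 of the range.

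The T3 effect on Hmgcs1 differed with and without glucagon. The departure from additivity was 1.283 on the log2 scale (edgeR adjusted p = 0.0165), and it was not called without glucagon 2 (0.0537). It includes the T3 group, which alone ran in lane 5, so lane and treatment cannot be told apart in it. T3 alone lowered Hmgcs1 by 1.11 on that scale, and T3 added to glucagon left it 0.18 higher, a value that was not called.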

How the results depend on the processing

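No called gene of the set changed direction under any alternative. Of 608 single-gene values under settings other than leaving out 1 library, 592 kept their side of the threshold, 7 lost a call and 9 gained one; of 704 values with 1 library left out, 682 kept it. The number of genes called in the set moved by over 1.5 times in few places. For combination against T3 it went from 1 to 2 with DESeq2, 3 with the compared groups alone and 2 without control 2 and glucagon 3, which enter this comparison through the shared spread alone. For T3 against control it went from 2 to 1 with the compared groups alone. With 1 library left out the counts ran from 4 to 6 for glucagon, 2 to 3 for T3, 3 to 4 for the combination and 3 to 4 for the hybrid against control, 2 to 3 for combination against glucagon, and 0 to 1 for the departure from additivity; the other comparisons kept their counts. With the 20 libraries and the replicate number as a replicate block, Sqle was called lower with glucagon (-1.07, adjusted p = 0.0104) and T3 (-0.83, 0.0472), and Mvd with the combination was not (0.0567); the block ended or added no other call. Leaving out the 4 libraries with skeletal muscle transcripts, chosen after seeing the data, ended the call of Mvd (0.188) and no other. Over all genes, fits of the compared groups alone called 976, 503, 918 and 1208 genes for glucagon, T3, combination and hybrid against control, in place of 2732, 2317, 2598 and 3144, and 523 in place of 179 for combination against T3, where DESeq2 called 336. For hybrid against combination DESeq2 called 28 genes in place of 4, and 16 were called with the compared groups alone or without control 2 and glucagon 3. For hybrid against T3 the compared groups alone called 1562 in place of 821. Leaving out 1 library also moved all-gene counts: 83 to 116 for combination against T3 without any T3 library or combination 1 or 2, 406 to 541 for hybrid against T3 without T3 1, 2 or 4 or hybrid 2 or 3, 1528 for T3 against control without T3 1, 821 in place of 482 for the departure from additivity without control 3, and 1 to 2 for hybrid against combination without hybrid 2, 3 or 4. The T3 libraries are the shallowest, with 38 to 236 counts a library for these genes, and standard errors of single changes between 2 groups ran from 0.18 (Lss) to 0.43 (Sqle) on the log2 scale.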
